A study of Mus musculus with 7 samples.

Results

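The 6 genes described here, Gfpt1, Gfpt2, Gnpnat1, Pgm3, Uap1 and Ogt, encode the enzymes that make UDP-GlcNAc by the hexosamine pathway and the enzyme that attaches it to proteins. They are 6 of 35976 genes in the deposited count table, and all 6 passed the filter on low counts, with 14936 genes in all. Gfpt2 was selected on its difference between the groups, in which it had the third smallest unadjusted p of all genes tested, and the other 5 were added as the rest of its pathway. Values of this contrast are therefore given for the 6 genes as a description, with no test.

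The mice under test carried a guide RNA against Egfr (sgEgfr, 3 libraries) and the controls a guide against the Rosa locus (sgRosa, genotype label sgRosa26, 4 libraries). Both groups were male C57BL/6J mice (their age is not given in the sources used here). Both received the guide with Cas9 by adeno-associated virus injected into the amygdala. Cas9 was driven by GfaABC1D, a promoter active in astrocytes. Expression ran for more than 2 weeks, and both groups then went through tube restraint (7 days), fear conditioning (1 day) and extinction (3 days). Cells were dissociated with papain and enriched with ACSA-2 beads, which bind astrocytes, and the total RNA was sequenced. The labels do not say that each library is a separate mouse, so errors cover the spread between libraries.

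The libraries held 5852870 to 22579222 counts. The libraries sgRosa 3 and 4 differed by little more than sampling noise (chi-square per degree of freedom 1.04, against 14.8 to 158 in the 20 other pairs). They were counted as 1 sample, sgRosa 3+4, which gave 3 samples per group. The level of Egfr itself (in CPM, the usual depth-scaled count, here with TMM-scaled library sizes) came to 10.7, 5.69 and 8.04 CPM in sgEgfr 1 to 3, against 13.3, 2.87 and 10.6 CPM in sgRosa 1, 2 and 3+4, and the groups overlapped. Markers of oligodendrocytes took 9.51% to 16.2% of counts in sgEgfr and 8.74% to 13.3% in sgRosa, and those of astrocytes 1.01% to 1.40% in sgEgfr and 0.637% to 1.59% in sgRosa, although the libraries are labelled as astrocytes. In such mixed RNA, fewer cells of a type and less RNA per cell cannot be told apart.

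The hexosamine pathway branches off glycolysis at fructose-6-phosphate and joins glucose, glutamine, acetyl-CoA and UTP into UDP-GlcNAc, the sugar donor for N-glycans, hyaluronan and other glycosaminoglycans and for O-GlcNAc on nuclear and cytosolic proteins. Its entry step, catalysed by glutamine:fructose-6-phosphate amidotransferase (GFAT), is rate-limiting and is inhibited by the end product. The enzyme exists as isoenzymes encoded by Gfpt1, which is widely expressed, and Gfpt2, which is prominent in the nervous system. In mouse heart, Gfpt1 is a target of XBP1, a transcription factor of the unfolded protein response. O-GlcNAc is added by OGT and removed by OGA, and the pair adjusts protein function to nutrient supply and stress.

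Gfpt2, an isoenzyme of the entry step, was the member that stood apart. It had 207, 181 and 278 counts in sgEgfr 1 to 3, against 84, 86, 59 and 34 counts in sgRosa 1 to 4. Scaled to depth, these were 13.1, 11.8 and 12.2 CPM in sgEgfr, against 5.93, 4.49 and 5.91 CPM in sgRosa 1, 2 and 3+4. Every sgEgfr sample lay above every sgRosa sample, and the samples within a group lay close together, at 12.4 ± 0.668 CPM in sgEgfr and 5.45 ± 0.824 CPM in sgRosa (SD, n = 3 each). On the log2 scale sgEgfr exceeded sgRosa by 1.18 (SE 0.25, 95% interval 0.60 to 1.77), a 2.27-fold higher level. By size this was not extreme, since 2.69% of all genes tested had a higher log2 fold change.

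**Figure D1:**
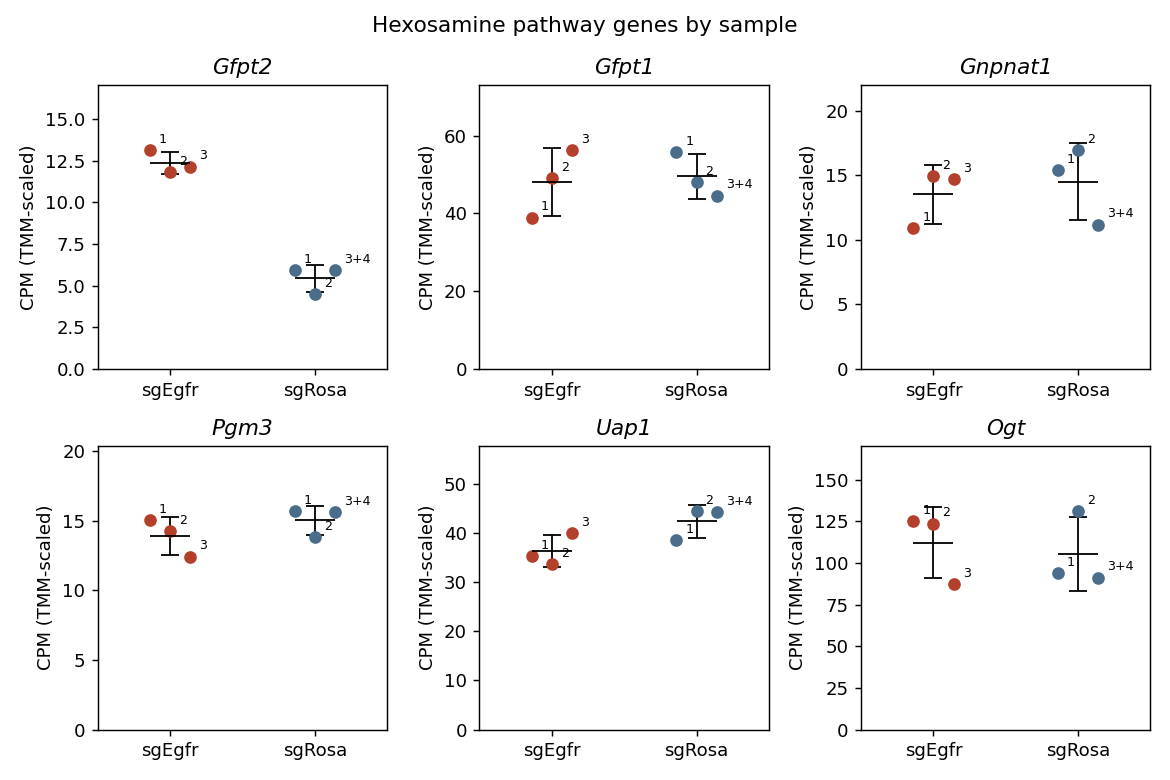
Level of each gene (CPM, TMM-scaled, linear axes from 0) in the 3 sgEgfr samples (left in each panel) and the 3 sgRosa samples (right). Points are samples with their replicate number, and bars are the mean and SD. The Gfpt2 points of sgEgfr (11.8 to 13.1 CPM) lie above those of sgRosa (4.49 to 5.93 CPM), while the points of the other 5 genes overlap.

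At the adjusted threshold (edgeR, adjusted p under 0.05), 0 of the 6 members and 0 of the 14936 genes were called, which is 0% of genes tested, except that 490 genes, none of them a member, were called with the fibroblast marker score (the mean centred log2 CPM of that marker list) as a covariate. At an unadjusted p under 0.05 there were 196 higher genes (1.31%) and 205 lower genes (1.37%), and DESeq2 and limma-voom also called 0, with 500 and 418 genes at an unadjusted p under 0.05. Ranges that did not overlap were found for 1 of the 6 members in the higher direction (Gfpt2), where 3.76% of all genes had such ranges, and for 0 members in the lower direction, where 3.85% did. Because Gfpt2 was picked from this contrast, nothing is read from these shares.

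Gfpt2 lies on chromosome 11, from 49794178 to 49838613 on the plus strand (GENCODE vM21, GRCm38, the build also called mm10), and Gfpt1 on chromosome 6, from 87042846 to 87092197 on the plus strand. No other annotated gene overlaps either. Of the 50-base stretches of Gfpt2 transcripts, 0 were shared with any other gene, and of those of Gfpt1 0 were shared with Gfpt2 and 5 with other genes, so reads of the paralogs can be told apart over that length. The 250 bases before the RefSeq start of both genes (GRCm38.p6, plus strand, 5′ to 3′) are shown because the isoenzymes differed so much in their values. Capitals mark TGANTCA, the letters of an AP-1 site, and CCACG, the core of the box read in the unfolded protein response, on either strand.
Gfpt2, chr11:49793905-49794154: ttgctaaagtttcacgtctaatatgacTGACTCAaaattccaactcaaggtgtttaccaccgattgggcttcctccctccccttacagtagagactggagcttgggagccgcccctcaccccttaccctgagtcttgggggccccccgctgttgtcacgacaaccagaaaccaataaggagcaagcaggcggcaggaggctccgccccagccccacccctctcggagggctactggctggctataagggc
Gfpt1, chr6:87042596-87042845: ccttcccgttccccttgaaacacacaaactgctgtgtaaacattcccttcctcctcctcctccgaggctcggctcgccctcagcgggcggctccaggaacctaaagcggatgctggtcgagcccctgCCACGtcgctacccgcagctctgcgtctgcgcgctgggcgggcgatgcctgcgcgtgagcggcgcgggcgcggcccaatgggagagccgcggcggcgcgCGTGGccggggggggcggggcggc

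The Gfpt2 stretch held 1 TGANTCA match, beginning 223 bases before the start, and 0 CCACG matches, while that of Gfpt1 held 0 and 2. Over 32851 RefSeq promoter stretches of the same length, 6.75% held TGANTCA and 28.3% held CCACG on either strand. The other letters searched were TGACGTG (XBP1 and ATF6 type, 1.65% of promoters), TGATGNAA (ATF4 composite type, 3.45%), CACGTG (E-box, 6.02%) and GGGCGG (Sp1, 32.7%). A run of CACGTGG counts for both CACGTG and CCACG. Gfpt2 and Gfpt1 had 0 matches to the first 3 of these, and 2 and 4 matches to GGGCGG. Gene starts were found for 5 of the 6 members (not Gnpnat1). In the stretches of Pgm3, Uap1 and Ogt, 1 CCACG match was found in Uap1 and 0 TGANTCA matches in any. Letters in such a window are not evidence of binding.

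Gfpt1, the isoenzyme that is the main form in most tissues, did not share the difference of Gfpt2. Its level was 38.9, 49.2 and 56.2 CPM in sgEgfr 1 to 3, against 55.8, 48.1 and 44.6 CPM in sgRosa 1, 2 and 3+4. The sgRosa range lay within that of sgEgfr, whose samples 1 and 3 were the lowest and the highest of all 6. Its log2 fold change of -0.04 had a wide interval (SE 0.18, 95% interval -0.46 to 0.38). The sign was not stable, with values of -0.31 to 0.17 over the alternatives.

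With Gfpt2 higher and Gfpt1 at a like level, the share of Gfpt2 in the GFAT transcripts was also higher. This restates the difference on which Gfpt2 was selected, so the shares are given as a description. Gfpt2 took 25.2%, 19.4% and 17.8% of the summed Gfpt1 and Gfpt2 counts in sgEgfr 1 to 3, against 9.61%, 8.54% and 11.7% in sgRosa 1, 2 and 3+4. The 95% Wilson intervals, which cover counting error only, ran from 15.97% to 28.3% over the sgEgfr samples and from 6.97% to 14.1% over the sgRosa samples. Divided by the exonic length of each gene (5591 bases for Gfpt2, 10072 for Gfpt1), the share of Gfpt2 was 32.0% ± 5.10 in sgEgfr and 16.6% ± 2.49 in sgRosa (SD, n = 3 each). Per length, Gfpt1 remained the more abundant transcript in all 6 samples. The sum of both was 6.21, 7.00 and 7.75 CPM per kb in sgEgfr 1 to 3, against 6.60, 5.58 and 5.48 CPM per kb in sgRosa 1, 2 and 3+4, and these ranges overlapped.

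**Figure D2:**
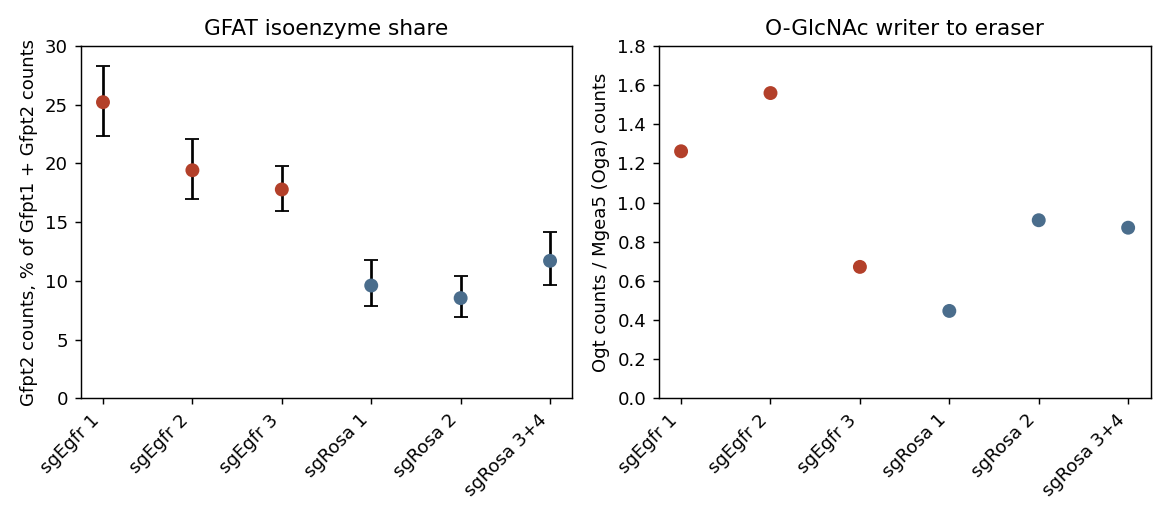
Left, Gfpt2 counts as a percentage of Gfpt1 plus Gfpt2 counts in each sample, with 95% Wilson intervals. The sgEgfr points (17.8% to 25.2%) lie above the sgRosa points (8.54% to 11.7%), which follows in part from the selection of Gfpt2 on this contrast. Right, Ogt counts divided by Mgea5 (Oga) counts in each sample; sgEgfr 3 (0.672) lies among the sgRosa points (0.447 to 0.910).

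The 3 enzymes between GFAT and UDP-GlcNAc showed no shift of the size seen for Gfpt2. Gnpnat1, which acetylates glucosamine-6-phosphate, had levels of 10.9, 14.9 and 14.7 CPM in sgEgfr 1 to 3, against 15.4, 16.9 and 11.2 CPM in sgRosa 1, 2 and 3+4. Its groups overlapped, with sgEgfr 1 and sgRosa 3+4 low, and it had a log2 fold change of -0.10 (SE 0.25, 95% interval -0.69 to 0.49). Pgm3, the mutase that moves the phosphate of the acetylated sugar, was at 15.03, 14.3 and 12.4 CPM in sgEgfr, against 15.7, 13.8 and 15.6 CPM in sgRosa. It was the steadiest member, its highest sample being 1.26 times its lowest, with a log2 fold change of -0.11 (SE 0.20, 95% confidence interval -0.58 to 0.36).

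Uap1, which joins the sugar phosphate to UTP and so makes UDP-GlcNAc, had levels of 35.3, 33.7 and 40.0 CPM in sgEgfr 1 to 3, against 38.5, 44.4 and 44.2 CPM in sgRosa 1, 2 and 3+4. The groups overlapped only through sgEgfr 3 and sgRosa 1. The log2 difference between sgEgfr and sgRosa of -0.22 (SE 0.15, 95% interval -0.56 to 0.12) lay in the direction opposite to Gfpt2. It was -0.059 with the endothelial score, -0.015 with the neuron score and 0.034 with the fibroblast score as a covariate.

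The counts of Gnpnat1 and Pgm3 are less certain than those of the others, because the strand setting of the counting was not given. Gnpnat1 lies on chromosome 14 (45376334 to 45404913, minus strand), where 72.4% of its 50-base stretches also lie in transcripts of Styx on the opposite strand. Pgm3 lies on chromosome 9 (86554377 to 86571842, minus strand) and shares 26.2% with Dop1a, also on the opposite strand. Uap1 (chromosome 1, 170141938 to 170174957, minus strand) and Ogt (chromosome X, 101640060 to 101684351, plus strand) have no overlapping gene.

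Ogt, whose product adds O-GlcNAc to proteins, had levels of 125, 124 and 87.5 CPM in sgEgfr 1 to 3, against 94.2, 131 and 91.3 CPM in sgRosa 1, 2 and 3+4. High and low samples occurred in both groups, and the lowest was sgEgfr 3. Its log2 fold change of 0.09 (SE 0.21, 95% interval -0.41 to 0.58) depended on the processing. It was 0.42 without sgRosa 2 and sgEgfr 3, 0.49 with the neuron score, -0.30 with the oligodendrocyte precursor score and -0.62 with the fibroblast score as a covariate.

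Mgea5, the table's symbol for Oga, encodes the enzyme that removes O-GlcNAc and was taken from a list of other genes of the O-GlcNAc cycle. It had levels of 99.2, 79.3 and 130 CPM in sgEgfr 1 to 3, against 211, 144 and 105 CPM in sgRosa 1, 2 and 3+4. The groups overlapped through sgEgfr 3 and sgRosa 3+4, and the log2 fold change of -0.57 (SE 0.29, 95% confidence interval -1.25 to 0.11) was not called (edgeR adjusted p = 0.997). An antisense transcript overlaps this gene. The ratio of Ogt to Mgea5 counts was 1.26, 1.56 and 0.672 in sgEgfr 1 to 3, against 0.447, 0.910 and 0.872 in sgRosa 1, 2 and 3+4, with sgEgfr 3 inside the sgRosa range. Eogt, which places O-GlcNAc on extracellular domains, was at 8.55 ± 1.64 CPM in sgEgfr and 6.67 ± 1.04 CPM in sgRosa (SD, n = 3 each; log2 fold change 0.36, SE 0.28, edgeR adjusted p = 0.997).

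Set against its own pathway within each sample, Gfpt2 differed between the groups by as much as it did alone. Gfpt2 minus the mean of the other 5 members on the log2 CPM scale was -1.23, -1.50 and -1.41 in sgEgfr 1 to 3, against -2.52, -2.99 and -2.40 in sgRosa 1, 2 and 3+4, a difference of 1.26 between the group means. Gfpt2 minus Gfpt1 was -1.56, -2.04 and -2.20 in sgEgfr and -3.21, -3.39 and -2.89 in sgRosa, a difference of 1.23. In both measures every sgEgfr sample lay above every sgRosa sample, which follows in part from the selection of Gfpt2 on this contrast. The other 5 members had a median log2 fold change of -0.10, beside 0.02 over all genes tested, and of the 6 members 2 had positive values, where 52.9% of all genes did.

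**Figure D3:**
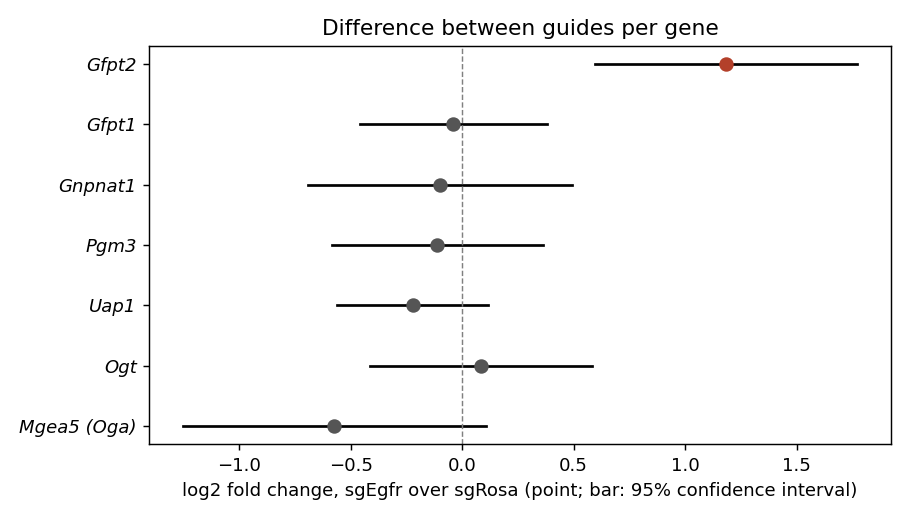
Log2 fold change of sgEgfr over sgRosa for the 6 members and Mgea5 (points) with 95% confidence intervals (bars). Gfpt2, which was selected on this contrast, lies at 1.18, and the other 6 genes lie between -0.57 and 0.09.

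Per kb of exon, the levels of the 6 genes had the same order of means in both groups, with Gfpt2 last, and in each group neighbours in that order did not overlap unless named below. Ogt was at 13.9 ± 2.65 CPM per kb in sgEgfr and 13.1 ± 2.76 in sgRosa, and Uap1 at 9.06 ± 0.818 in sgEgfr and 10.6 ± 0.832 in sgRosa (SD, n = 3 each). Gfpt1 followed at 4.77 ± 0.861 CPM per kb in sgEgfr and 4.91 ± 0.567 in sgRosa. Pgm3, at 3.10 ± 0.299 CPM per kb in sgEgfr and 3.35 ± 0.235 in sgRosa, and Gnpnat1, at 2.86 ± 0.479 in sgEgfr and 3.06 ± 0.627 in sgRosa, did not differ beyond their spread. Gfpt2 was at 2.21 ± 0.119 CPM per kb in sgEgfr, where its highest sample (2.35) passed the lowest of Gnpnat1 (2.30), and at 0.974 ± 0.147 CPM per kb in sgRosa, where its highest sample (1.06) was under the lowest of Gnpnat1 (2.36).

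Likeness across samples varied between pairs of members. Likeness was measured as the root mean square difference of log2 CPM over the 6 samples, each gene centred on its own mean, among genes of at least 10 CPM (9040 compared with Gfpt2, 9039 with Gfpt1). Gfpt1 and Gnpnat1 were alike (0.16), with 5.43% of genes closer to Gfpt1 than Gnpnat1 was. From Gfpt2, Gfpt1 lay at 0.66, and 52.5% of genes were closer. The nearest member to Gfpt2 was Ogt (0.64, 45.7% of genes closer) and the farthest Uap1 (0.73, 72.7% closer). These distances include the difference between the groups, so those from Gfpt2 follow in part from its selection on this contrast. The 5 genes closest to Gfpt2 were Rlbp1, which encodes a retinaldehyde-binding protein (0.277), the augmin subunit Haus7 (0.282), the transcriptional regulator Tsc22d1 (0.285), the kinesin heavy chain Kif5a (0.288) and the cell cycle regulator Rgcc (0.290). All 5 had their 3 sgEgfr values above their 3 sgRosa values, which follows from likeness to Gfpt2. Among those closest to Gfpt1 were 1700020I14Rik, Kantr, Fam126a and Dnajb6, at 0.05 to 0.06.

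Genes that feed the pathway or use its product were taken from fixed lists, and none of their tested members passed the edgeR test in either direction (adjusted p = 0.997 for each gene named here). Of 12 genes of glucose and glutamine supply, 7 were positive, with a median log2 fold change of 0.05. The glucose transporters Slc2a1 and Slc2a3 had values of 0.57 (SE 0.26) and 0.72 (SE 0.39), glutamine synthetase Glul had -0.34 (SE 0.24) and the glutamine transporter Slc1a5 -0.47 (SE 0.27). Slc2a1 is also a marker of brain endothelium and stands in that list too. Glul was at 2075 ± 198 CPM in sgEgfr and 2621 ± 428 CPM in sgRosa (SD, n = 3 each).

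Of 10 genes that salvage GlcNAc or break it down, 9 were positive, with a median of 0.11. Galk2, a kinase of N-acetylgalactosamine, had 0.65 (SE 0.44), the epimerase Renbp 0.36 (SE 0.44), the deaminase Gnpda2 0.26 (SE 0.23) and the GlcNAc kinase Nagk 0.14 (SE 0.18). All 10 overlapped between the groups, as did most genes tested. Over all genes, 3.76% had ranges that did not overlap in the higher direction and 3.85% in the lower one. In the sialic acid branch 4 of 7 genes tested were positive (median 0.10), among them Gne, the enzyme that draws UDP-GlcNAc into that branch, at 0.36 (SE 0.20), and the CMP-sialic acid transporter Slc35a1 at 0.40 (SE 0.26). Cmas, which activates sialic acid, had -0.44 (SE 0.31) and the synthase Nans -0.20 (SE 0.20).

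Among 12 genes of N-glycan synthesis that use UDP-GlcNAc, 7 were positive (median 0.04), and non-overlapping ranges were found for Alg13 in the higher direction (0.14) and for Mgat3, which adds the bisecting GlcNAc, in the lower one, beside 3.76% and 3.85% of all genes tested. Mgat3 was at 55.7 ± 1.81 CPM in sgEgfr and 66.9 ± 7.11 CPM in sgRosa (SD, n = 3 each), a log2 fold change of -0.26 (SE 0.14). Alg14, the partner of Alg13, had 0.26, Mgat5b 0.30 and Mgat2 -0.21. Of 7 hyaluronan genes tested 3 were positive (median -0.12), with the hyaluronidase Hyal1 at -0.29, the receptor Cd44 at -0.29, Ugp2, which makes UDP-glucose, at -0.12 and Cemip, a hyaluronan-degrading protein at 0.528 CPM on average, at 1.42 (SE 1.06). The hyaluronan synthases Has1, Has2 and Has3 were under the filter on low counts.

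**Figure D4:**
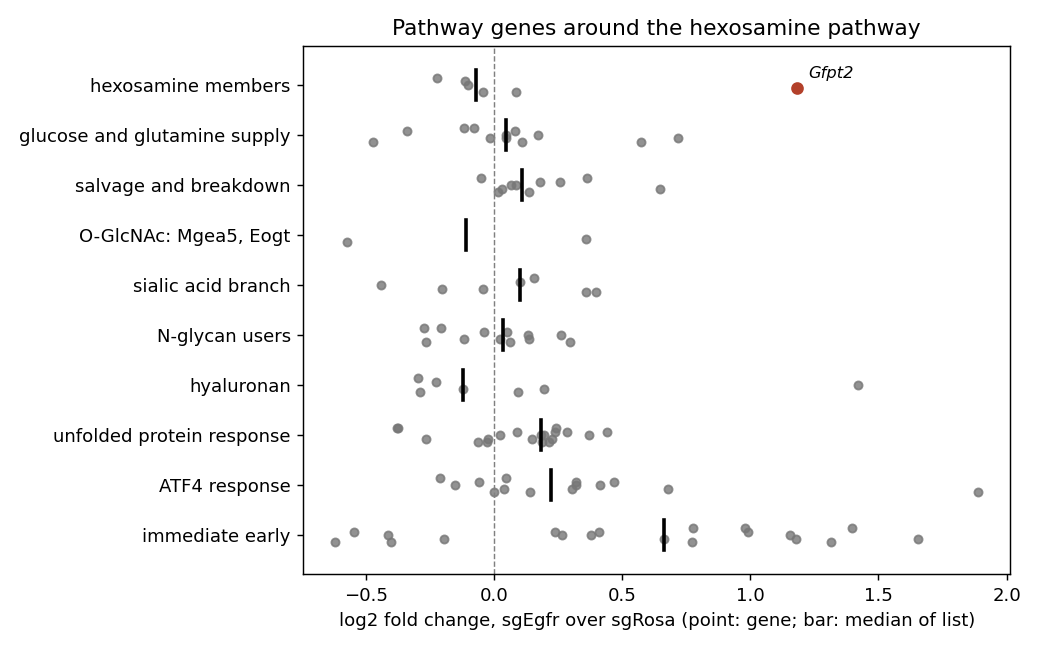
Log2 fold change of sgEgfr over sgRosa for each tested gene (points) of 10 lists, with the median of each list (vertical bars). Gfpt2 (1.18) lies apart from the other hexosamine genes, and the medians of the supply, salvage, sialic acid, N-glycan and hyaluronan lists lie between -0.12 and 0.11. Those of the unfolded protein response, ATF4 response and immediate early lists lie higher, at 0.19, 0.22 and 0.66.

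Stress programmes that can act on the entry step were also examined. Of 19 genes of the unfolded protein response, 13 were positive with a median of 0.19, and 0 were called by edgeR. Xbp1, its transcription factor, had a log2 fold change of -0.06 (SE 0.18), the chaperone Hspa5 0.23 (SE 0.32) and Dnajb9, an XBP1 target, 0.22 (SE 0.16). Sec61b had 0.37 and Herpud1 0.44, while Hyou1 (-0.38) and Edem1 (-0.37) were negative. Of 14 genes of the ATF4 response tested, 11 were positive with a median of 0.22, and 0 were called, with Atf4 itself at 0.14 (SE 0.19), Ddit3 at 0.31 (SE 0.28) and Asns, a glutamine-using enzyme, at 0.32 (SE 0.28). Ppp1r15a, at 63.5 ± 10.8 CPM in sgEgfr and 39.7 ± 7.29 CPM in sgRosa (SD, n = 3 each), had 0.68 (SE 0.20). Ddit4 had 0.42, and Atf3, at 102 ± 101 CPM in sgEgfr and 27.6 ± 14.6 CPM in sgRosa (SD, n = 3 each), 1.89.

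Immediate early genes, which include the AP-1 subunits, had 14 of 19 tested members positive, a median of 0.66 and 0 called. The 5 negative members included the AP-1 subunit Jund (-0.62), Egr3 (-0.55) and Arc (-0.41). Fos was at 1175 ± 503 CPM in sgEgfr and 472 ± 236 CPM in sgRosa (SD, n = 3 each; log2 fold change 1.32, SE 0.44), with overlapping groups, Ier2 had 1.40, Egr1 1.18 and Nr4a1 0.98. The summed share of these genes was 0.277%, 0.532% and 0.588% of counts in sgEgfr 1 to 3, against 0.188%, 0.360% and 0.188% in sgRosa 1, 2 and 3+4. sgEgfr 1, the sample with the most Gfpt2 (13.1 CPM), had the lowest such share of its group, and sgRosa 2, with the least Gfpt2 (4.49 CPM), had the highest of its own. Within a group the Gfpt2 values lay close together, so these ranks carry little weight. A link between these genes and Gfpt2 was not tested.

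Markers of several other cell types lay higher in sgEgfr beside Gfpt2. Summed neuron markers took 0.0686% to 0.0717% of counts in sgEgfr and 0.0482% to 0.0648% in sgRosa, with 17 of 19 tested markers positive, among them Snap25 (log2 fold change 0.48) and Rbfox3 (0.20). Endothelial markers took 0.0279% to 0.0309% in sgEgfr and 0.0204% to 0.0228% in sgRosa, with 16 of 19 positive, among them Flt1 (0.80) and Cldn5 (1.05). Fibroblast markers took 0.0179% to 0.0281% in sgEgfr and 0.00996% to 0.0167% in sgRosa, with 9 of 13 positive, of the defining ones Dcn (0.46) and not Col1a1 (-0.09). These 3 summed shares did not overlap between the groups, with sgEgfr above sgRosa. Slc2a1 alone made up 51.2% to 62.8% of the endothelial sum in sgEgfr and 38.4% to 64.4% in sgRosa. Without it the endothelial shares overlapped, at 0.0115% to 0.0136% in sgEgfr and 0.00811% to 0.0126% in sgRosa. The endothelial scores, which include Slc2a1, overlapped as well. Pdgfra, which is also an oligodendrocyte precursor marker, made up 49.3% to 64.0% of the fibroblast sum in sgEgfr and 29.3% to 49.4% in sgRosa. Without it the fibroblast shares were 0.00863% to 0.0101% in sgEgfr and 0.00704% to 0.00844% in sgRosa, a ratio of means of 1.21 in place of 1.70. Without Snap25, the leading marker of the neuron sum, the neuron shares still did not overlap. They were 0.0486% to 0.0543% in sgEgfr and 0.0394% to 0.0428% in sgRosa. These values without a leading marker were added after the data were seen.

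Oligodendrocyte precursor markers took 0.219% to 0.306% of counts in sgEgfr and 0.181% to 0.238% in sgRosa, with 13 of 15 positive, among them Pdgfra (1.33) and Cspg4 (0.33). Microglia markers (0.0267% to 0.0561% in sgEgfr, 0.0217% to 0.0432% in sgRosa, 17 of 20 positive) included Cx3cr1 (0.22) and P2ry12 (0.38). Mural markers (0.0665% to 0.0902% in sgEgfr, 0.0791% to 0.0870% in sgRosa) had 5 of 13 positive, with Pdgfrb at -0.46 and Rgs5 at -0.01. Ependymal markers had 12 of 12 positive but ran from 0.00431% to 0.132% in sgEgfr and from 0.00565% to 0.0479% in sgRosa, with Foxj1 at 0.80 (SE 0.93), and blood markers had 1 of 5 positive. Among astrocyte markers 14 of 20 were positive, with Aqp4 at 0.44, Gja1 at 0.32 and Slc1a3 at -0.05, and among oligodendrocyte markers 8 of 20, with Mbp at 0.78 and Mog at -0.25.

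With a marker score as a covariate beside the guide, the log2 fold change of Gfpt2 was 1.10 for astrocytes, 1.08 for endothelium, 0.90 for neurons, 1.28 for fibroblasts and 1.36 for oligodendrocyte precursors. It was 1.34 with the heat shock score. The SE of the Gfpt2 value was 0.50 with the fibroblast score, against 0.25 without a covariate. The neuron and fibroblast scores lay higher in every sgEgfr sample than in every sgRosa sample, so these fits separate score and guide poorly. Of the 15 heat shock genes 12 were positive (median 0.14) and 0 were called by edgeR, and they took 0.326% to 0.361% of counts in sgEgfr and 0.236% to 0.341% in sgRosa. The part of microglia, ependymal and immediate early genes in the Gfpt2 value was not tested. Over all alternatives the Gfpt2 value stayed positive, from 0.90 to 1.36, and without each library in turn it ran from 1.06 (without sgRosa 2) to 1.25 (without sgRosa 1). These fits reuse the samples on which Gfpt2 was selected, so the steady sign is not independent support.

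**Figure D5:**
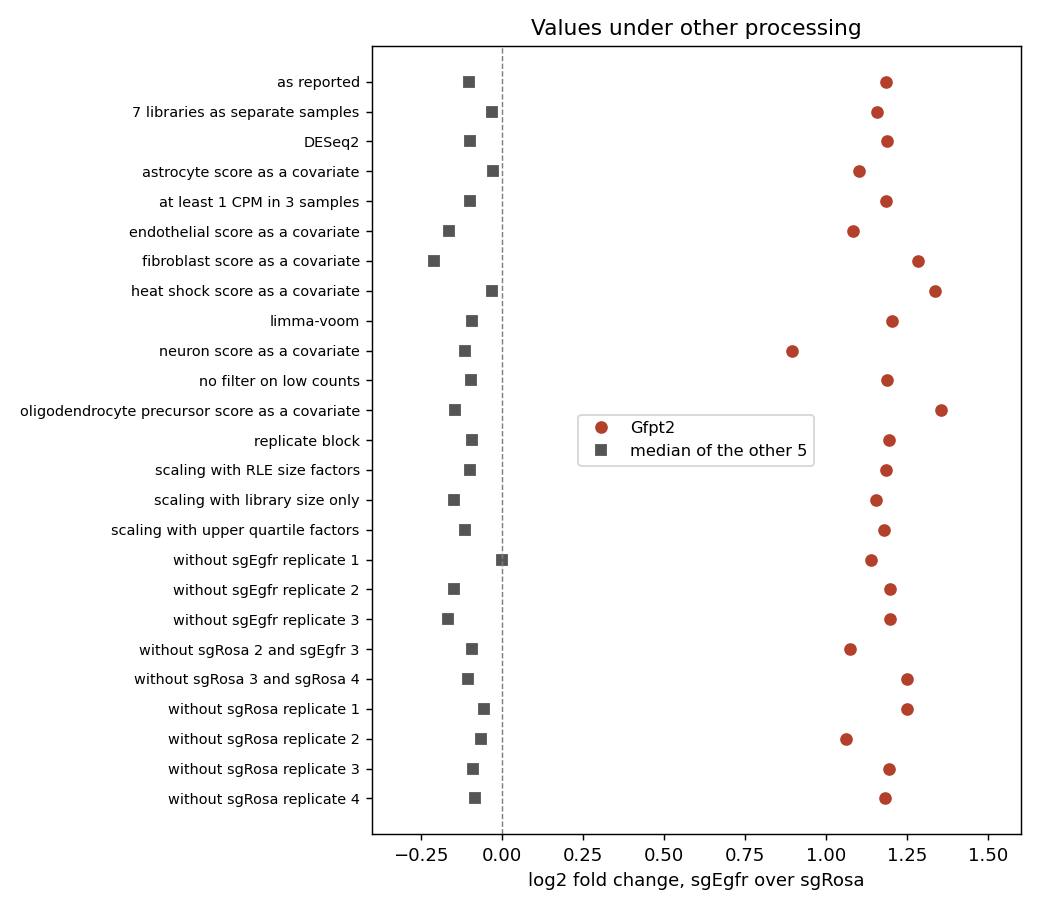
Log2 fold change of Gfpt2 (circles) and median of the other 5 members (squares), sgEgfr over sgRosa, as reported (top row) and under each alternative. Gfpt2 lies between 0.90 and 1.36, and the median of the other 5 between -0.21 and 0.00.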

How the data were processed

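RNA-seq counts of 7 libraries were analysed. The authors deposited raw read counts, whole numbers for each gene, in a series table and in 7 files with the same values. Per the submitters' processing notes, fastp 0.23.2, STAR 2.7.5c (mm10), featureCounts 2.0.1, edgeR 3.42.4, MultiQC 1.11 and FastQC 0.11.9 were used. Which annotation and strand setting the counting used is not given in the sources used here, which leaves overlapping genes uncertain. Gene positions and exon lengths are from GENCODE vM21, promoters from RefSeq.

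Library pairs were compared by chi-square (genes of 20 or more counts), and sgRosa 3 and 4 were summed. Genes were kept with filterByExpr (minimum count 10, minimum total 15), TMM-scaled and then put through glmQLFit and glmQLFTest of edgeR 4.0.16 (R 4.3.3) on a model of guide alone. Benjamini-Hochberg adjustment ran over all 14936 genes. The common biological coefficient of variation was 0.386. DESeq2 1.42.0 and limma 3.58.1 (voom) were alternatives on the same filtered genes. Log2 CPM used a prior count of 2, and a marker score is the mean centred log2 CPM of a list. In these libraries 3 counts stood for 0.133 to 0.513 CPM.

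The members, lists and alternatives were chosen with earlier results of these data known. Genes named were the 6 members, Egfr, Mgea5, up to 4 genes with the smallest p in each pathway list, the 5 most like Gfpt2 or Gfpt1, and set markers of stress responses and cell types. Alg13, Jund, Egr3, Arc and the note on Slc2a1 were added after their values were seen. Some genes that this rule names are not reported here. Figures were drawn with matplotlib 3.10.9.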

Additional observations from a re-analysis of the deposited data

How the results depend on the processing

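Under 25 alternatives (21 planned, 4 added after earlier results and the data were seen), 241 values were recomputed and 14 moved by more than the spread between samples or, for calls, by over 1.5 times. The Gfpt2 value, Gfpt2 against the other 5 members and Gfpt2 against Gfpt1 stayed positive in all 24 settings that give a value (0.90 to 1.36, 0.93 to 1.47 and 1.04 to 1.36). As Gfpt2 was selected on this contrast in the same samples, these signs show only how the values depend on the processing. Other scaling factors and filters, DESeq2, limma-voom, 7 separate libraries and a threshold of 0.1 moved none beyond the spread and gave 0 calls.

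Genes called were 490 with the fibroblast score as a covariate (484 higher, 6 lower, 0 members) and 0 in the 24 other settings, with 173 to 1427 genes at an unadjusted edgeR, DESeq2 or limma-voom p under 0.05 there and 1797 with that score. That score and the neuron score lay higher in every sgEgfr sample than in every sgRosa sample, so each moves with the guide. With the fibroblast score, Pgm3 had a log2 fold change of -0.29, Uap1 0.034 and Ogt -0.62. With the neuron score as a covariate, Gfpt1 had -0.31, Gfpt2 0.90, Pgm3 -0.24, Uap1 -0.015 and Ogt 0.49, and Gfpt2 minus the mean of the other 5 members was 0.93. With the endothelial score Uap1 had -0.059, with the oligodendrocyte precursor score Gfpt2 had 1.36 and Ogt -0.30, and without sgRosa 2 and sgEgfr 3 Ogt had 0.42. The cause was not tested.

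By the labels the samples share only numbers. The deviations of same-numbered samples correlated at -0.11, 0.52 and 0.55 across genes, for numbers 1, 2 and 3. Pairs of unlike number ran from -0.58 to 0.26, and sgEgfr 1 correlated best with sgRosa 2. The values for numbers 2 and 3 were the highest of all pairs, so whether samples were handled in pairs cannot be settled here. With the replicate block, Gfpt2 had 1.19, and 0 genes were called, with 705 at an unadjusted edgeR p under 0.05 against 401 without it. Leaving out each library gave -0.17 to 0.09 for Gfpt1, -0.20 to 0.03 for Gnpnat1, -0.17 to -0.04 for Pgm3, -0.30 to -0.19 for Uap1 and -0.01 to 0.27 for Ogt. With 3 samples a group, the intervals of the 5 other members allow changes of up to 0.58 upward and -0.69 downward on the log2 scale.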
